A study of Homo sapiens with 6 samples.

Results

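The Aurora and Polo-like kinases were followed here with 3 proteins that activate or bind Aurora A, as 10 genes: AURKA, AURKB and AURKC, PLK1, PLK2, PLK3 and PLK4, and TPX2, BORA and AJUBA. They were chosen by name, because the series title gives Aurora A and PLK-1 as the targets of the compound. The others are paralogs or Aurora A cofactors. Earlier results of these data were known when the members were chosen. All 10 were measured, out of 18132 genes, by 21 of the 44988 probe sets that name a single gene. Of the 10, 4 had 1 probe set and 6 had 2 to 4. A probe set is a group of short oligonucleotides on an Affymetrix array that report 1 transcript or gene, and its value is a hybridisation signal on a log2 scale.

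The study placed 6 samples labelled as the human colorectal carcinoma line HCT-116 on PrimeView arrays. In 3 of them, named DMSO control, the cells received the vehicle, and in the other 3 they received AAPK, a compound known here by its code only. The treatment entry that reads the same for all 6 gives 10 µM and 48 h; the dose is taken as that of AAPK. All 6 samples are described as having high levels of both kinases, so this marks no group. Nothing states that the samples of a group were separate cultures, so the p-values describe how these samples scatter, and that scatter may be technical.

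Before the results, the label of the cell line was set against epithelial markers. Of 8 such genes, 3 that mark colon epithelium had signals below the lower quartile of all probe sets (5.15) on every array and every probe set: EPCAM at 3.20 to 3.52, CDH1 (E-cadherin) at 3.96 to 5.15 and KRT19 at 4.94 to 5.07. The other 5 were higher: KRT8 and KRT18 lay at 10.38 to 12.05 and 12.29 to 12.57, and the brightest probe sets of CLDN4, ELF3 and CLDN7 had DMSO means of 8.80, 9.12 and 6.06. KRT8 and ELF3 rose in AAPK, by 0.17 each (limma adjusted p = 0.0402 and 0.0483), and the other 6 did not pass. The 3 ELF3 probe sets changed by -0.03 to 0.17. Added after the values were seen, the brush-border gene VIL1 lay at 3.62 to 4.33 and the mesenchymal filament gene VIM at 12.12 to 12.59. The list was thus mixed, with EPCAM, CDH1 and KRT19 low in both groups. For cells labelled as colorectal carcinoma these low signals leave the identity uncertain, and it was not tested further. "HCT-116" is used here as the label only. Among 18 measured markers of fibroblast, endothelial, blood, liver, muscle, neural and germ cells, group means ran from 3.69 to 8.10, and none passed the test (3 at an unadjusted p under 0.05, limma). Pairs of arrays of 1 group correlated at 0.9976 to 0.9983, and pairs from different groups at 0.9942 to 0.9954.

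Aurora and Polo-like kinases are serine/threonine kinases of cell division. Aurora A works at centrosomes and spindle poles, where TPX2 holds it active on microtubules; bound to BORA it phosphorylates the activation loop of PLK1 and so starts entry into mitosis. Aurora B acts at centromeres and the midzone within the chromosomal passenger complex, and Aurora C is its close relative, best known from germ cells. PLK4 controls centriole duplication, while PLK2 and PLK3 are better known as genes induced by serum and stress. Transcripts of the mitotic members normally peak in G2 and mitosis, and this periodic expression runs in part through the CHR element and CCAAT boxes of their promoters.

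Promoters of 8 members were found in the RefSeq-derived table (GRCh38.p14), as 12 windows; AURKA and TPX2 were not among them. The 250 bases before each start were searched on both strands for the CHR (TTTGAA or TTCGAA), the CCAAT box (CCAAT), E2F cores (TTCCCGCC, TTTCCCGC or TTTGGCGC) and the composite element bound by ATF4 with C/EBP proteins (TGATGNAAN). The windows of the 3 members that were higher in AAPK and held a match are shown because they set the mitotic kinase and its cofactor beside the serum-induced paralog; capitals mark the matches.
PLK1, chr16:23678639-23678888, plus strand: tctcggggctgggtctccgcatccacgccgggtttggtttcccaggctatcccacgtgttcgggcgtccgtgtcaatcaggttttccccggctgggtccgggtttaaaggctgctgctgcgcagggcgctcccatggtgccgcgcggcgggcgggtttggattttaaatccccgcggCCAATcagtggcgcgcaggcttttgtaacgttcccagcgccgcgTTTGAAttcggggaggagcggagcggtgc
BORA, chr13:72727673-72727922, plus strand: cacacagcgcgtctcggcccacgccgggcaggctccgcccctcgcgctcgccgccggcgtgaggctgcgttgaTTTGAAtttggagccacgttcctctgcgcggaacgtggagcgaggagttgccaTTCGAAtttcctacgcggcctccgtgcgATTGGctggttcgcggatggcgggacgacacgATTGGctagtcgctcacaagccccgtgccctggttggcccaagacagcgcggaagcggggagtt
PLK2, chr5:58460087-58460336, minus strand: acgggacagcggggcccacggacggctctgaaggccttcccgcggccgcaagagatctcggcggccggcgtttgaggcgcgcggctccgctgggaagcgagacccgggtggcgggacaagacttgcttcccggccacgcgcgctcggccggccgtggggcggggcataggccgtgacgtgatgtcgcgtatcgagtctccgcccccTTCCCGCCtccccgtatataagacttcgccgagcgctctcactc

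The PLK1 window held 1 CHR, 29 to 24 bases before the start, and 1 CCAAT box, 73 to 69 bases before it. The BORA window held 2 CHR matches and 2 CCAAT boxes, the latter read on the opposite strand. Among members with a window, the CHR letters were found in PLK1 and BORA only. A CCAAT box was also found for AJUBA, which fell, and for AURKB, AURKC and PLK4, which did not pass. Of all 35116 windows, 14.3% held a CHR match and 32.0% a CCAAT box, so either alone is common. The PLK2 window held an E2F core 44 to 37 bases before the start, which 3.94% of all windows did. A match is a run of letters and does not show that a factor binds there.

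In AAPK-treated cells the transcripts of Aurora A, PLK1 and the cofactors TPX2 and BORA rose, AJUBA fell, and the transcript of Aurora B did not pass the test. Of the 10 genes, 5 rose, the fifth being PLK2, 1 fell and 4 did not pass (limma, Benjamini-Hochberg adjusted p under 0.05 over 18132 genes). The calls on BORA and PLK2 depended on the processing and were lost under 5 and 7 of the other settings. Over all genes, 8.11% were higher and 7.26% lower. The median log2 change of the 10 was 0.14, against -0.02 for all genes. Among the 21 probe sets, each fitted on its own, 8 rose and 3 fell, where 7.13% and 5.82% of all probe sets did. Signals of the 2 groups stood fully apart in 13 of the 21, against 29.6% of all probe sets. In a bulk extract, a larger share of cells with a transcript and more of it per cell cannot be told apart.

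**Figure D1:**
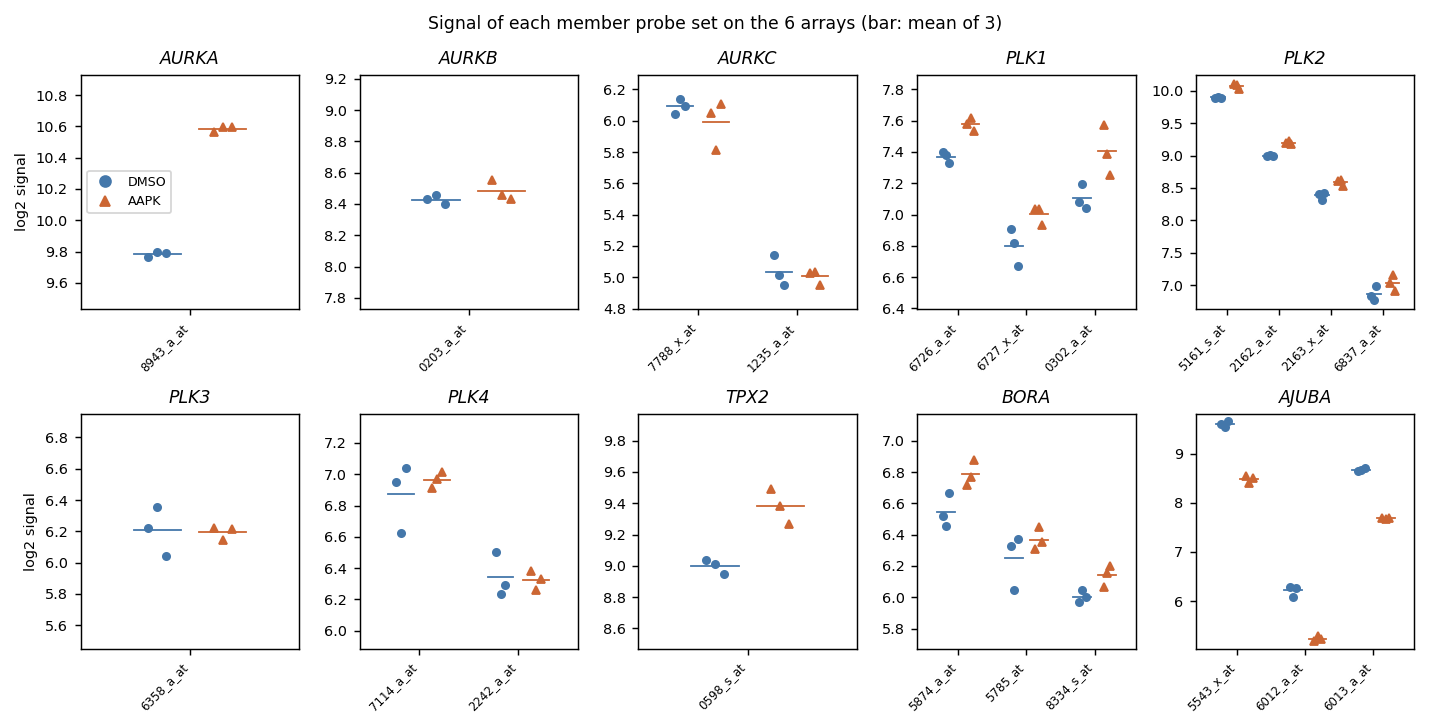
Log2 signal of each probe set of the 10 genes on the 6 arrays, with DMSO as circles, AAPK as triangles and bars at the means of 3; probe sets are named by the last 4 digits and the suffix, the brightest first, and axes differ between panels. AURKA stands at 9.77 to 9.80 in DMSO and 10.57 to 10.60 in AAPK, and AJUBA is the gene whose 3 probe sets are all lower in AAPK.

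AURKA, the gene of the compound's first stated target, gave log2 signals of 9.77, 9.80 and 9.79 in DMSO and 10.57, 10.60 and 10.59 in AAPK. The groups were 0.77 apart at their nearest, far more than the SD of 0.02 in either (n = 3). The change was 0.80 ± 0.04 (SE), 1.74-fold with a 95% interval of 1.63 to 1.86 (limma adjusted p = 1.79e-06), and ranked 13 among 18132 genes by size of rise. AURKA has 1 probe set that names it alone. A further probe set names AURKA together with its pseudogene AURKAP1 and the unrelated RAB3GAP2 and was kept apart.

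AURKB, the kinase of the chromosomal passenger complex, gave 8.43, 8.45 and 8.40 in DMSO and 8.55, 8.46 and 8.43 in AAPK. The groups overlapped, and the change of 0.05 ± 0.05 did not pass (limma adjusted p = 0.536). Its 95% interval, a ratio of 0.964 to 1.12, lies wholly below that of AURKA. On each array AURKA minus AURKB rose by 0.65, 0.78 and 0.80 over the DMSO mean, and the changes of the 2 genes differed by 0.75. The exact permutation p was 0.1 (two-sided), the smallest that 3 arrays against 3 allow, and 0.175 adjusted over the 7 pairs compared.

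AURKC, the Aurora kinase best known from germ cells, was measured by 2 probe sets. The brighter, whose suffix (x_at) marks probes that may also match other sequences, read 6.04, 6.14 and 6.10 in DMSO and 6.05, 5.81 and 6.11 in AAPK, and the other, at 4.95 to 5.14 over the 6 arrays, lay below the lower quartile of all probe sets. The changes were -0.10 and -0.03, and neither passed (adjusted p = 0.453 and 0.820 over all probe sets, limma). The germ-cell markers SYCP3, DDX4, DAZL and PRM1 had DMSO means of 3.69, 3.91, 4.30 and 5.16.

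PLK1, the second stated target, was measured by 3 probe sets, and on each the AAPK arrays lay above all DMSO arrays. The brightest gave 7.40, 7.38 and 7.33 in DMSO and 7.58, 7.62 and 7.53 in AAPK. The change was 0.21 ± 0.05, 1.15-fold with a 95% interval of 1.08 to 1.24 (limma adjusted p = 0.0118). A second gave 7.08, 7.19 and 7.04 in DMSO against 7.57, 7.39 and 7.25 in AAPK, a change of 0.30 ± 0.08 (adjusted p = 0.0306 over all probe sets). The third, with the same x_at suffix, changed by 0.20 and did not pass (adjusted p = 0.0700). PLK1 ranked 1114 by rise, and its change was smaller than that of AURKA by 0.59 (0.57, 0.56 and 0.65 on the AAPK arrays; exact permutation p = 0.1, adjusted 0.175).

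**Figure D2:**
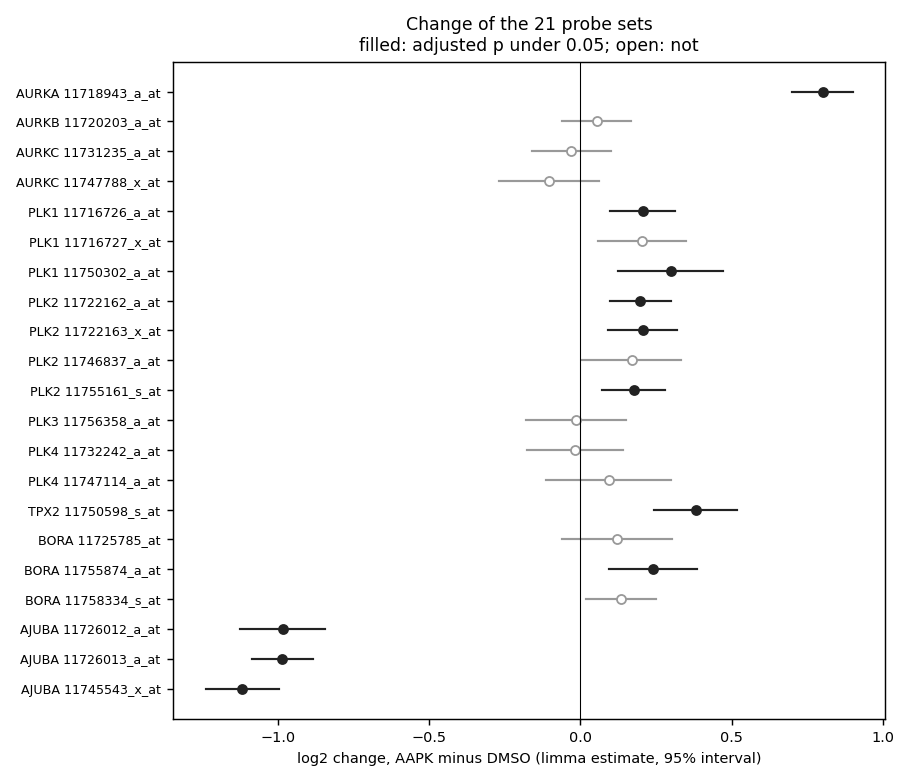
Log2 change of the 21 probe sets with its 95% interval from limma; filled points passed at an adjusted p under 0.05 over all 44988 probe sets and open points did not. AURKA stands at 0.80, the PLK1 and PLK2 probe sets between 0.17 and 0.30, and the 3 AJUBA probe sets between -1.12 and -0.98.

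Both TPX2 and BORA, which bind Aurora A, were higher as well. TPX2, the spindle protein that activates Aurora A, read 9.04, 9.01 and 8.95 in DMSO and 9.49, 9.38 and 9.27 in AAPK. Its groups did not overlap, and its change was 0.38 ± 0.06, 1.30-fold (95% interval 1.19 to 1.43, limma adjusted p = 0.00187), rank 258 by rise. The SD was 0.11 in AAPK and 0.05 in DMSO (n = 3 each). The change of AURKA exceeded that of TPX2 by 0.42 (exact permutation p = 0.1, adjusted 0.175).

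BORA, the Aurora A cofactor for PLK1, was measured by 3 probe sets. Even the brightest had a DMSO mean of 6.55, near the median of all probe sets (6.49) and within the range of the markers of other cell types. The brightest read 6.52, 6.45 and 6.67 in DMSO and 6.72, 6.77 and 6.87 in AAPK, groups that were 0.05 apart at their nearest. Its change was 0.24 ± 0.06, 1.18-fold (limma adjusted p = 0.0293). The other probe sets changed by 0.13 and 0.12 and did not pass (adjusted p = 0.136 and 0.421 over all probe sets). With the mean of the 3 the change was 0.17 (adjusted p = 0.0518), and the call was also lost without DMSO replicate 1 or 2 or AAPK replicate 2 or 3 (0.19 to 0.25, adjusted p = 0.0665 to 0.0971).

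AJUBA, a LIM-domain scaffold reported to bind and activate Aurora A and to restrain the LATS kinases of the Hippo pathway, was the member that fell. Its brightest probe set, an x_at set, gave 9.60, 9.55 and 9.67 in DMSO and 8.54, 8.41 and 8.51 in AAPK. The groups were 1.01 apart at their nearest, and the change was -1.12 ± 0.05, 2.17-fold lower (limma adjusted p = 8.48e-07), rank 14 by size of fall. The other 2 probe sets, without that suffix, gave 8.66, 8.66 and 8.71 against 7.70, 7.68 and 7.69, and 6.30, 6.09 and 6.27 against 5.18, 5.29 and 5.23. Those changes were -0.98 ± 0.05 and -0.98 ± 0.06, and all 3 probe sets had AAPK arrays below every DMSO array.

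AJUBA has 2 starts in the promoter table, and the window before the inner one held the ATF4 and C/EBP letters, on the strand opposite to the one printed, 35 to 27 bases before the start, as 3.13% of all windows did. That match is shown, in capitals, because AJUBA is the member with the largest change; a CCAAT box, also read on the opposite strand, lies just before it in lower case. The window before the outer start held no searched motif. The inner window lies downstream of the outer start, and which start gave the AJUBA signal was not tested.
AJUBA, chr14:22976858-22976887, minus strand: gcaaattggaATTGCATCAgatggaatttt
PLK3 was the other member with such a match (TGATGTAAG, 133 to 125 bases before the start), and it did not pass the test.

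PLK2, a Polo-like kinase induced by serum and stress, was measured by 4 probe sets. The brightest read 9.89, 9.91 and 9.89 in DMSO and 10.10, 10.09 and 10.03 in AAPK. The groups did not overlap; the change was 0.18 ± 0.04, 1.13-fold (95% interval 1.06 to 1.21, limma adjusted p = 0.0199). The other 3 changed by 0.20, 0.21 and 0.17, of which the first 2 passed over all probe sets (adjusted p = 0.0156 and 0.0241) and the last did not (adjusted p = 0.181). With quantile normalisation the brightest fell to 0.11 and lost the call (adjusted p = 0.113), as it did without DMSO replicate 1 or 3 or AAPK replicate 1 or 2 (0.16 to 0.17, adjusted p = 0.0522 to 0.0815). PLK1 and PLK2 changed by amounts 0.03 apart, with overlapping arrays (exact permutation p = 0.3, adjusted 0.35), which does not show that they changed alike. The difference was 0.10 with quantile normalisation, 0.049 with the mean of the probe sets and 0.13 with the most variable one. It was 0.013 without DMSO replicate 3, 0.019 without AAPK replicate 2 and 0.048 without DMSO replicate 1.

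PLK3, the other stress-induced paralog, read 6.22, 6.36 and 6.04 in DMSO and 6.22, 6.14 and 6.22 in AAPK. These signals lay below the median of all probe sets (6.49). The change was -0.01 ± 0.07 (limma adjusted p = 0.934), with an interval from a ratio of 0.886 to 1.11, and its sign turned with either quantile normalisation or median centring. PLK2 changed by 0.19 more than PLK3, with arrays that overlapped (exact permutation p = 0.2, adjusted 0.28); this was 0.10 with quantile normalisation and 0.12 without DMSO replicate 2.

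PLK4, the centriole duplication kinase, gave 6.95, 6.62 and 7.04 in DMSO and 6.91, 6.97 and 7.01 in AAPK on its brighter probe set. DMSO replicate 2 was the lowest array on both PLK4 probe sets. The change was 0.09 ± 0.09 (limma adjusted p = 0.580), and without that array it was -0.03. The other probe set changed by -0.02, so PLK4 was the 1 member whose probe sets differed in sign. PLK1 changed by 0.11 more than PLK4, with overlapping arrays (exact permutation p = 0.6). That difference was 0.24 without DMSO replicate 2 and 0.0085 without DMSO replicate 3, and 0.20 with either the mean of the probe sets or the most variable one.

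**Figure D3:**
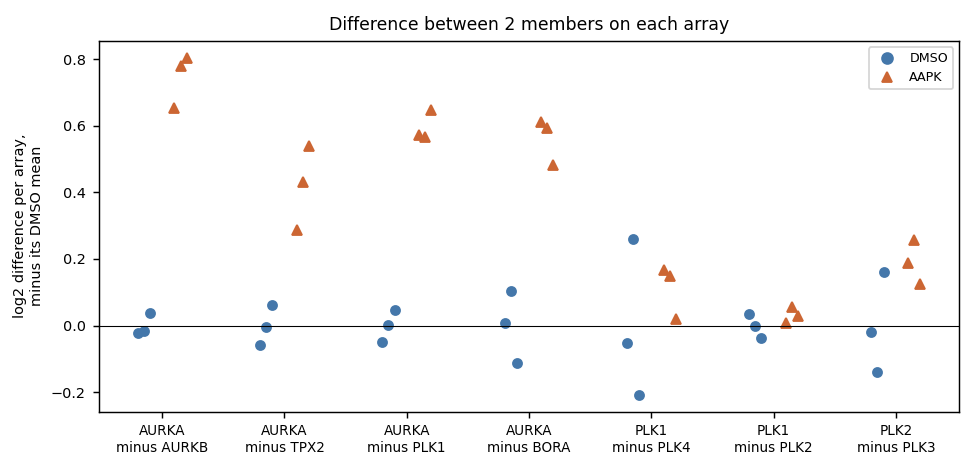
Difference between the log2 signals of 2 genes on each array, minus its mean over the DMSO arrays, for the 7 pairs compared; circles are DMSO and triangles AAPK. The 4 pairs with AURKA separate the groups, with AAPK at 0.29 to 0.80, whereas PLK1 minus PLK4, PLK1 minus PLK2 and PLK2 minus PLK3 overlap.

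Partners of these kinases were counted on lists drawn up by role, with earlier results of these data known, so the counts are description only. Each count is to be read beside the shares over all genes, 8.11% higher and 7.26% lower. For Aurora B, whose own transcript did not pass, 6 of 11 passenger-complex genes and partners rose and 0 fell (limma; at an unadjusted p under 0.05, 8 and 0), with a median of 0.23. KIF20A, a midzone kinesin, went from 8.23, 8.14 and 8.28 to 8.99, 8.94 and 8.92, a change of 0.73, and CDCA8 (borealin), which anchors the complex, changed by 0.60. The others that rose were SGO2, BIRC5, NDC80 and KIF2C, at 0.23 to 0.51, named after their values were seen. BIRC5 had 12 probe sets, from -0.04 to 0.69. INCENP, the scaffold that activates Aurora B, changed by 0.17 with groups that did not overlap, and did not pass (limma adjusted p = 0.0536).

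Of 24 measured PLK1 docking partners and substrates, 11 rose and 4 fell, with a median of 0.05. CDC20, an activator of the anaphase-promoting complex, and CCNB1, cyclin B1, rose by 0.88 and 0.86; CDC20 has 2 further probe sets, which changed by 0.01 and 0.89. The 4 that fell, named after their values were seen, were the kinetochore gene CENPU at -0.51, the cohesin release factor WAPL at -0.31, the replication checkpoint mediator CLSPN at -0.26 and the anaphase-promoting complex inhibitor FBXO5 at -0.21. WAPL had probe sets from -0.34 to 0.08. The others that rose, named after their values were seen, were BUB1, ECT2, BUB1B, GTSE1, PRC1, CEP55, RACGAP1, FOXM1 and CDK1, at 0.17 to 0.74.

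Of 14 measured Aurora A cofactors and regulators other than the members, 2 rose and 2 fell, with a median of 0.01. Over all genes 8.11% rose and 7.26% fell, and counts this small are not read as a trait of the list. HMMR, which helps place TPX2 on the spindle, rose by 0.65 with all 4 probe sets above 0. GADD45A, a stress gene reported to restrain Aurora A, fell by 1.49, from 10.23, 10.16 and 10.25 to 8.69, 8.87 and 8.62. The remaining calls, named after their values were seen, were TACC3, a spindle partner, at 0.33 and NEDD9, a scaffold that activates Aurora A, at -0.58. NEDD9 fell beside AJUBA, while TPX2 rose and BORA rose with a call that not every setting kept.

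**Figure D4:**
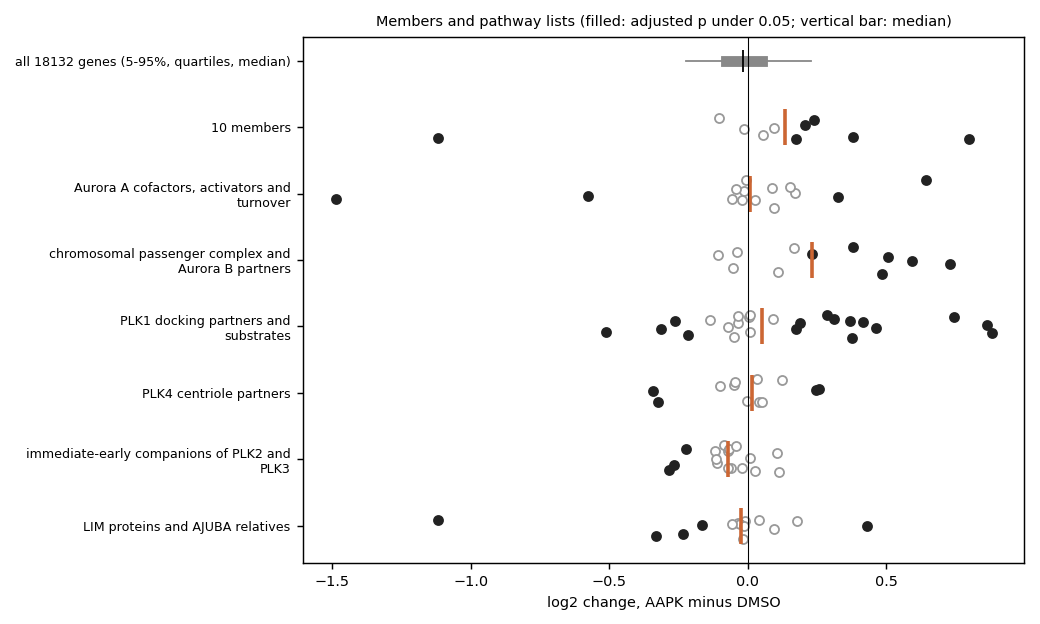
Log2 change of the 10 members and of the 6 lists, 1 point a gene, filled where the adjusted p was under 0.05, with the median as a vertical bar; the top row gives the 5th to 95th percentile, quartiles and median of all genes. The passenger-complex list has its median at 0.23, with 6 filled points and all of them above 0.

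Of 12 measured centriole and turnover partners of PLK4, 2 rose and 2 fell (median 0.02), where 8.11% and 7.26% of all genes did. CCP110, which caps centrioles, and STIL, which PLK4 phosphorylates, were those that fell, by 0.34 and 0.32. SKP1 and CUL1, named after their values were seen, rose by 0.26 and 0.25. Of 17 measured immediate-early genes, drawn up as companions of PLK2 and PLK3, 0 rose and 3 fell (limma; at an unadjusted p under 0.05, 2 and 6), with a median of -0.07. IER5 and ATF3, both induced by stress, fell by 0.28 and 0.27, and IER3, named after its value was seen, by 0.22. The 7 ATF3 probe sets changed by -0.79 to -0.02.

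Among 14 LIM proteins and Hippo pathway genes, AJUBA included, 1 rose and 4 fell (median -0.02), where 8.11% and 7.26% of all genes did. WWTR1 (TAZ) went from 8.57, 8.57 and 8.77 to 9.04, 9.06 and 9.11, a change of 0.43; its probe sets ranged from 0.08 to 0.43. Beside AJUBA, and named after their values were seen, CCN1 fell by 0.33, YAP1 by 0.23 and LATS1 by 0.16. LATS1 had a DMSO mean of 4.64, below the lower quartile of all probe sets, and its other probe sets changed by as little as -0.0095. The 8 YAP1 probe sets changed by -0.23 to 0.26. The brightest was the lowest of them, and 2 had the opposite sign, so a fall of YAP1 depends on the probe set. AJUBA's nearest relatives LIMD1 and WTIP did not pass.

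The genes whose 6 centred signals lay nearest to those of AURKA were ARLN, RPL36AL and FAM98A, at distances of 0.089, 0.097 and 0.098 log2 units; they changed by 0.74, 0.74 and 0.73. For PLK1 they were CCDC85B, MVD and SIL1, at distances of 0.028 to 0.032 and with changes of 0.20, 0.22 and 0.19. With 6 arrays in 2 groups this likeness is mostly that of the change itself.

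**Figure D5:**
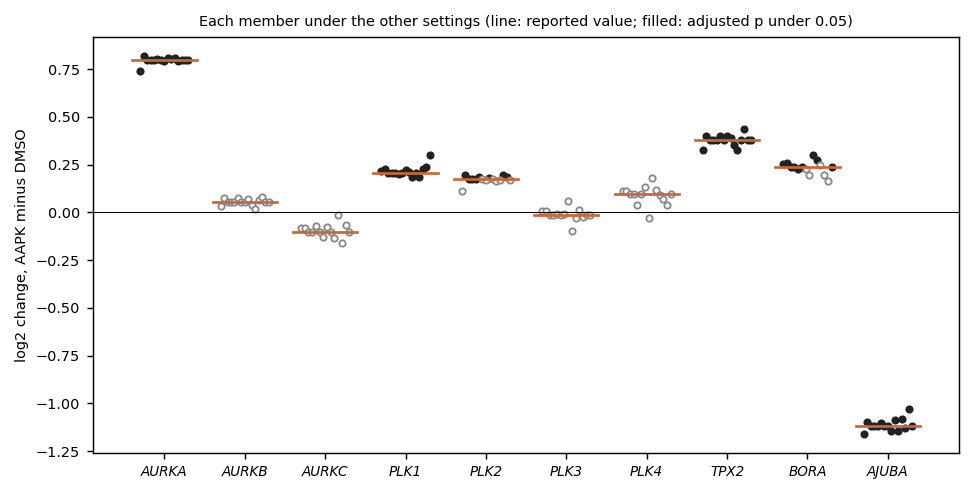
Log2 change of each member gene under up to 15 other settings (points, filled where the adjusted p was under 0.05) beside the reported value (line). AURKA, PLK1, TPX2 and AJUBA keep filled points in every setting that was run for them, and PLK2 and BORA have filled and open points.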

How the data were processed

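The deposited table gives log2 signals of 49395 PrimeView probe sets; that they are log2 was read from the values (2.83 to 14.25). Which background correction, normalisation and probe summary made them is not given in the sources used here. Array medians were 6.46 to 6.50, and scaling between arrays would remove a change shared by most genes. Probe sets were named from the platform annotation: 44988 name 1 symbol, 1832 several, 2473 none, and 102 are controls. Each gene was represented by its brightest single-symbol probe set (mean of 6 arrays); each of the 44988 was also fitted alone. limma 3.58.1 in R 4.3.3 (lmFit, eBayes, group only, two-sided) was used with Benjamini-Hochberg adjustment over all genes or all probe sets, threshold 0.05; the fit was tested on simulated data. Differences between members used an exact permutation test over arrays. No detection calls were used. AURKC, PLK1, PLK3, PLK4 and BORA had DMSO means of 6.09, 7.37, 6.21, 6.87 and 6.55. These lay within the range of the group means of markers of other cell types (3.69 to 8.10). Whether such signals stand for expressed transcripts was not tested. Signals were set beside quartiles or markers as a rough guide, because different probe sets do not measure amounts on a shared scale. The number of arrays, 3 a group, limits precision. Groups and numbers came from sample titles. From each list the 2 genes with the largest called change are named. Likeness is the Euclidean distance of centred signals, among genes above the median signal. Alternatives covered normalisation, centring, signal filters, probe choice, variance trend, array weights, a replicate block and leaving out arrays. The members, lists and rules were chosen with earlier results of these data known. Listed genes without a single-symbol probe set were not analysed here.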

Additional observations from a re-analysis of the deposited data

Results flagged for a closer look

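A probe set outside the gene comparison, which names AURKA, its pseudogene AURKAP1 and RAB3GAP2 together, changed by a log2 value of 0.83 ± 0.05, upwards in AAPK (limma adjusted p = 7.57e-06 over all probe sets that are not controls). It gave 8.93, 8.91 and 9.01 in DMSO and 9.81, 9.72 and 9.80 in AAPK, and the groups did not overlap. Which of the 3 genes gave the signal was not tested. A probe set naming PLK3 with BTBD19 gave 7.61, 7.86 and 7.79 in DMSO and 7.74, 7.76 and 7.78 in AAPK, a change of 0.0044 that did not pass (adjusted p = 0.981). Groups of 3 arrays are too small for a check of single outlying arrays.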

How the results depend on the processing

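In the gene fit, the calls on AURKA, PLK1, TPX2 and AJUBA were kept under each of the 15 alternatives. Their log2 changes were 0.74 to 0.82, 0.19 to 0.30, 0.33 to 0.44 and -1.16 to -1.03. The highest limma adjusted p was 0.0485 for PLK1, without AAPK replicate 2, and 0.000105 for AURKA, with a replicate block. Calls kept on genes do not extend to each PLK1 probe set fitted alone. Leaving out 1 array in turn gave 3 to 4 member genes higher in place of 5 (3 without DMSO replicate 1 or AAPK replicate 2), and 2 to 7 member probe sets higher in place of 8 (4 without DMSO replicate 1, 5 without DMSO replicate 2 or 3, and 2 without AAPK replicate 1 or 2); these fits have fewer arrays. PLK3, at -0.01, turned to 0.0097 with quantile normalisation and 0.0058 with median centring, and ran from -0.0957 to 0.0611 with 1 array left out. PLK4 ran from -0.0305 to 0.179 with 1 array left out. For AURKC and PLK4 the changes were not called under any alternative that was run, nor were those of AURKB and PLK3. The 7 differences between members kept their direction, though those among the Polo-like kinases moved by over 1.5 times. Aurora A cofactors had 4 genes higher in place of 2 when genes dimmer than the median were dropped and with an intensity trend. The LIM and Hippo list had 2 higher in place of 1 under 6 of the settings that keep all arrays, and 1 to 2 with an array left out (2 without AAPK replicate 3), and 3 to 4 lower in place of 4 under the other alternatives but 2 with the mean of the probe sets or the one with the largest spread. The immediate-early list had 5 lower in place of 3 when each gene took its most variable probe set. The cause of these moves was not tested. Genes under a signal filter gave no value there. The replicate numbers shared by the groups gave no sign of pairing: deviations of same-numbered arrays correlated at -0.02, -0.23 and -0.05, and no array correlated best with its own number. Deviations from a mean of 3 arrays tie these correlations together, so the check cannot settle whether arrays were paired. With the number as a replicate block, 4 member genes were higher and PLK2 lost its call (0.18, adjusted p = 0.0579), and calls over all genes went from 2788 to 2099.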
